A study of Mastomys natalensis with 3 samples.

Results

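The genes described are 8 members of the clathrin-mediated uptake machinery, measured by 12 probe sets of the 8740 non-control probe sets on a rat expression array. They encode the clathrin coat (Clta, Cltb and Cltc), subunits of the AP-2 adaptor (Ap2m1 and Ap2a2), the endosomal clathrin binder Hgs and the dynamins Dnm1 and Dnm2. Members were all probe sets that the platform annotation gives to these symbols. The set was picked with the values in view, because Cltb was highest in the carcinoid and Ap2m1 was much lower at 16 than at 8 weeks, so those patterns are given as a description only.

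Clathrin is built from heavy and light chains that assemble into a cage around budding vesicles. AP-2 links the cage to receptors and lipids of the plasma membrane, and dynamin, a GTPase, cuts the vesicle free. In endocrine cells the same machinery retrieves vesicle membrane after regulated secretion, and it also takes receptors into endosomes, where Hgs sorts ubiquitin-tagged receptors towards lysosomes.

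RNA of Mastomys natalensis, a rodent from Africa in which gastric carcinoids are common, was hybridised to 3 Affymetrix rat arrays. The carcinoid array held gastric cells of Mastomys in which a carcinoid of enterochromaffin-like (ECL) cells, which store and release histamine in the stomach wall, had arisen spontaneously. The other arrays held such cells from animals given loxtidine, which blocks the histamine receptor behind acid secretion, for 16 weeks and for 8 weeks. The labels call the cells of each sample enriched for ECL cells, and give neither the age, sex or number of animals nor an untreated group. With 1 array for each group there are no replicates, no difference could be tested, and precision is limited by the number of arrays.

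Intensities were quantile normalized over the 3 arrays, and 12.4, the pooled median, served as the floor below which a value was not compared. The log2 differences of a pair of probe sets for 1 gene had a spread that was 0.62 in carcinoid against 16 weeks, from 457 genes. It was 0.82 in carcinoid against 8 weeks, from 395 genes, and 0.79 in 16 against 8 weeks, from 410 genes. This spread, the only error available, holds no variation between animals. The standard deviation of the log2 differences over all probe sets measured was 0.68, 0.88 and 0.85 in the same order of comparisons. Probe sets of 1 gene thus differed nearly as much as probe sets of any genes. The GAPDH 5' control read 344, 364 and 37.3 (deposited intensity) on the carcinoid, 16-week and 8-week arrays, so the 8-week array stood apart. Its source label alone names ECL cells and not gastric mucosa. The ratio of the 3' to the 5' control, a mark of RNA quality, was 2.31, 1.43 and 8.95 for GAPDH in that order. For beta-actin it was 11.7, 6.71 and 16.1. Both ratios were highest at 8 weeks and higher in the carcinoid than at 16 weeks. The lot named in the labels also differed for every array and cannot be told apart from the group. Of 11 ECL and neuroendocrine markers 9 were found, and 6, 7 and 7 of them reached the floor on the carcinoid, 16-week and 8-week arrays, with summed normalized intensities of 181, 268 and 294. Hdc, which makes histamine and defines ECL cells, stayed under the floor on every array. All 3 parietal cell markers found (Atp4a, Atp4b and Car2) reached the floor on every array. Summed normalized intensities were 1304, 1802 and 1355 for these parietal markers, 4115, 5136 and 5164 for 3 chief cell markers, 1520, 1044 and 1213 for 4 mucous cell markers (mostly Tff1), and 110, 103 and 72.2 for 6 smooth muscle markers, on the carcinoid, 16-week and 8-week arrays. The markers did not share 1 order of arrays within the ECL, parietal, chief, mucous, smooth muscle or erythroid lists, so a sum can hide opposed members. Muc5ac read 213, 168 and 15.8, lowest at 8 weeks. Tff1 (1213, 831 and 1124), Tff2 (65.6, 19.3 and 44.8) and Gkn1 (28.7, 26.2 and 28.7) were lowest at 16 weeks. Atp4a (903, 1449 and 966) was highest at 16 weeks, Atp4b (117, 143 and 240) at 8 weeks and Car2 (284, 211 and 149) in the carcinoid. Acta2, Myh11 and Cnn1 were lowest at 8 weeks, Tagln and Des at 16 weeks and Actg2 in the carcinoid. Slc18a2 (23.2, 42.3 and 21.8) and Cpe (22.5, 22.8 and 13.1) were lowest at 8 weeks. Cckbr, Chgb, Syp and Snap25 were lowest in the carcinoid. The 2 leukocyte markers found, Ptprc and Cd74, summed to 8.0, 14.3 and 51.3, and the 2 erythroid markers, Hbb and Alas2, to 98.7, 78.9 and 78.1. Hbb (33.9, 41.5 and 44.9) was highest at 8 weeks and Alas2 (64.8, 37.3 and 33.2) in the carcinoid. The sums include any values under the floor. In such bulk samples fewer cells of a type and less RNA per cell cannot be told apart. The part of these differences in the results below was not tested.

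**Figure D1:**
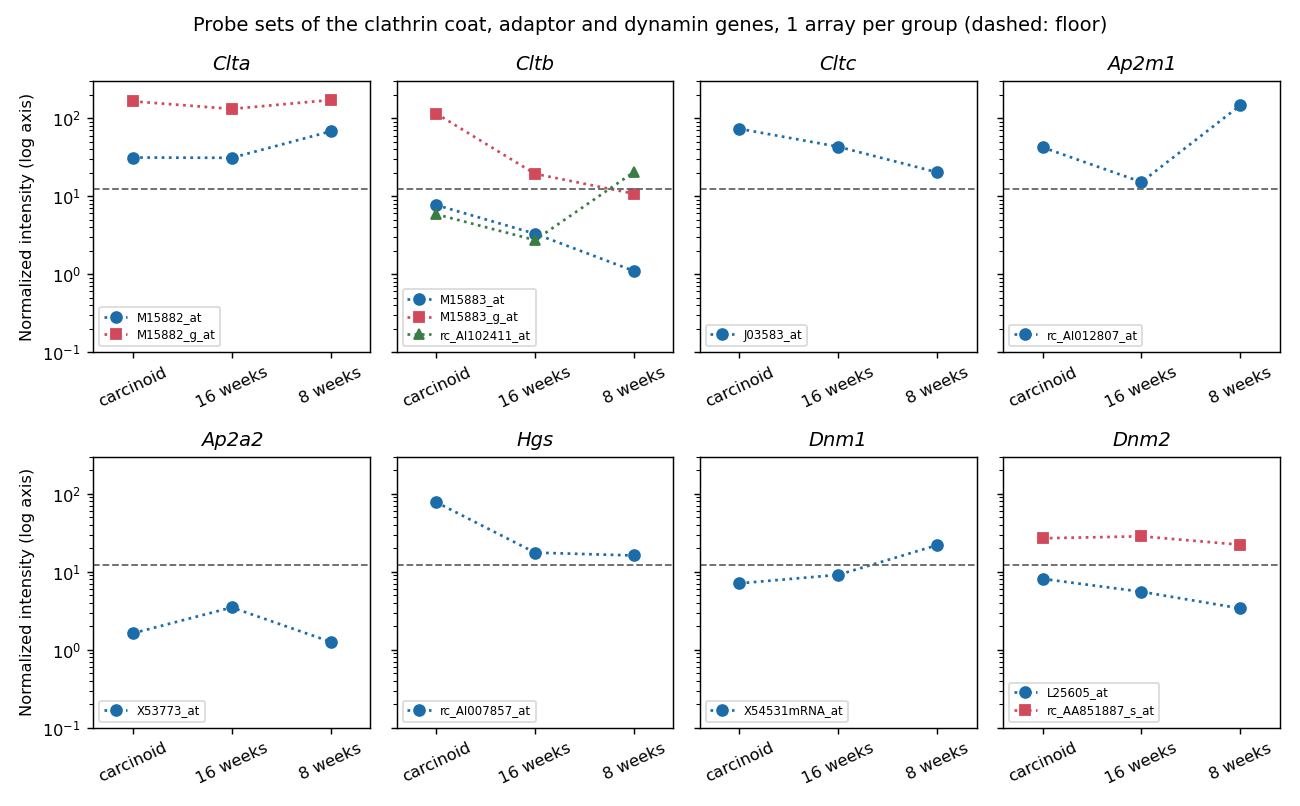
Normalized intensity (log axis) of each probe set of the 8 genes on the carcinoid, 16-week and 8-week arrays, 1 array per group; dotted lines join the values of 1 probe set and the dashed line is the floor of 12.4. Among probe sets that reach the floor, those of Cltc and Hgs and the brightest of Cltb are highest on the carcinoid array, Ap2m1 is highest on the 8-week array, and Ap2a2 lies under the floor on all 3.

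Cltc encodes the heavy chain, the structural unit of the clathrin cage. Its probe set, J03583_at, read 87.0, 46.5 and 16.8 as deposited, and 73.2, 43.1 and 20.3 after normalization, on the carcinoid, 16-week and 8-week arrays. The carcinoid value was the highest and the 8-week value the lowest on both scales. After normalization Cltc was 3.61-fold higher in the carcinoid than at 8 weeks (log2 difference 1.85), 1.70-fold higher in the carcinoid than at 16 weeks, and 2.13-fold higher at 16 than at 8 weeks. The 16-week step was 1.09 on the log2 scale, little above the spread of 0.79 between probe sets of 1 gene, and with the floor at 30 it was a bound of 0.52.

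Clta and Cltb encode the light chains, which bind the heavy chain and regulate cage assembly. Clta had a pair of probe sets made from the same sequence. M15882_g_at read 201, 142 and 116 as deposited on the carcinoid, 16-week and 8-week arrays, a range that normalization narrowed to 165, 132 and 171. No pair of arrays was 2-fold apart for it on either scale. Its order depended on the scaling: the carcinoid value was 1.73 times the 8-week value as deposited, but 1.04-fold lower after normalization. M15882_at read 35.2, 33.5 and 50.7 as deposited, and 31.3, 31.1 and 67.9 after normalization. By this probe set Clta was 2.17-fold lower in the carcinoid than at 8 weeks and 2.19-fold lower at 16 than at 8 weeks. As deposited those differences were 1.44-fold and 1.51-fold, under the 2-fold threshold. The log2 differences of the pair lay 1.06 apart for carcinoid against 8 weeks and 0.31 apart for carcinoid against 16 weeks. Of 178 such pairs on the array measured in carcinoid against 8 weeks, 35.4% lay over 1 apart, so the gap at Clta was of a common size.

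Cltb was measured by 3 probe sets, which did not all give the same order of the arrays. M15883_g_at, the brightest, read 141, 20.5 and 8.8 as deposited, and 115, 19.4 and 10.8 after normalization, on the carcinoid, 16-week and 8-week arrays. The carcinoid value stood far above both others, and the 8-week value lay under the floor. By this probe set Cltb was 5.93-fold higher in the carcinoid than at 16 weeks and at least 9.27-fold higher than at 8 weeks. With the floor at 30 both comparisons become bounds of 1.94 on the log2 scale. M15883_at, made from the same sequence, read 8.6, 3.6 and 1.0 as deposited, in the same order but under the floor everywhere. The probe set made from an expressed sequence tag (EST), rc_AI102411_at, ran otherwise, at 6.4, 3.0 and 16.9 as deposited, and only its 8-week value reached the floor. By that probe set Cltb was at least 1.64-fold lower both in the carcinoid and at 16 weeks than at 8 weeks, a bound that does not reach 2-fold. With the floor at the 25th percentile (4.2) the log2 difference was -1.80 for the carcinoid and a bound of -2.28 for 16 weeks. The high carcinoid value of Cltb therefore rests on 1 of 3 probe sets.

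Ap2m1 encodes the mu subunit of AP-2, which recognises sorting signals in the tails of receptors. Its EST probe set rc_AI012807_at read 48.5, 16.1 and 99.5 as deposited, and 42.3, 15.2 and 146 after normalization, on the carcinoid, 16-week and 8-week arrays. The 16-week value was close to the floor, and the carcinoid value lay between the others. Ranked among all non-control probe sets of each array, which needs no scaling, its percentile was 83.5, 55.3 and 96.5 in the same order of arrays. Normalized intensity was 2.79-fold higher in the carcinoid than at 16 weeks, 3.45-fold lower in the carcinoid than at 8 weeks, and 9.63-fold lower at 16 than at 8 weeks. As deposited the fall at 16 weeks was 6.18-fold. With the floor at 30, carcinoid against 16 weeks was only a bound of 0.50 on the log2 scale. Relative to 8 weeks, Ap2m1 was lower and Cltc higher both at 16 weeks and in the carcinoid. Ap2m1 was picked for its fall at 16 weeks, and both comparisons share the 8-week array, so nothing is read from this contrast.

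Ap2a2 encodes the alpha-2 subunit of AP-2, which binds membrane lipids and accessory proteins. Its single probe set, X53773_at, read 1.7, 3.8 and 1.1 as deposited on the carcinoid, 16-week and 8-week arrays, under the floor on each, so no fold is given. Rat probes met Mastomys RNA, and sequence differences can dim a probe set, so a value under the floor does not show that the transcript was absent.

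Hgs (also known as Hrs) is the endosomal protein of the set, a clathrin-binding subunit of the first sorting complex on the path to the lysosome. Its EST probe set rc_AI007857_at read 92.9, 18.8 and 13.4 as deposited, and 78.3, 17.7 and 16.2 after normalization, on the carcinoid, 16-week and 8-week arrays. The carcinoid value stood alone, while the 16-week and 8-week values were 1.09-fold apart. Hgs was 4.43-fold higher in the carcinoid than at 16 weeks and 4.83-fold higher than at 8 weeks. Both loxtidine values were only slightly over 12.4, and a floor of 30 made each difference a bound of 1.38 on the log2 scale.

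The dynamins showed no difference of 2-fold measured on both arrays at the floor of 12.4. Dnm2, the form made in most tissues, had 2 probe sets. rc_AA851887_s_at read 30.2, 30.7 and 18.4 as deposited, and 27.0, 28.6 and 22.3 after normalization, on the carcinoid, 16-week and 8-week arrays. The largest of its differences, 1.28-fold higher at 16 than at 8 weeks, was 0.36 on the log2 scale and within the spread between probe sets; as deposited the 16-week value was 1.67 times the 8-week value. L25605_at read 9.1, 6.0 and 2.9 as deposited, under the floor throughout. Dnm1, the dynamin of neurons and some endocrine cells, read 7.9, 9.7 and 18.2 as deposited on X54531mRNA_at. Only the 8-week value reached the floor, giving bounds of at least 1.77-fold lower in the carcinoid and at 16 weeks. With the floor at 4.2 Dnm1 was measured on all 3 arrays, and the log2 differences from 8 weeks were -1.62 for the carcinoid and -1.26 for 16 weeks. Of 9 neuron and glia markers 7 were found, and 5, 2 and 2 of them reached the floor on the carcinoid, 16-week and 8-week arrays. Their summed normalized intensity, values under the floor included, was 130, 86.6 and 136. The markers did not share 1 order. Syn1 (45.5, 43.1 and 76.5) was highest at 8 weeks, Nefh (2.8, 14.8 and 8.9) at 16 weeks, and Nefl (21.1, 3.5 and 8.8) and Mbp (24.5, 8.2 and 2.2) in the carcinoid. Whether nerve content bears on the Dnm1 values was not tested.

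**Figure D2:**
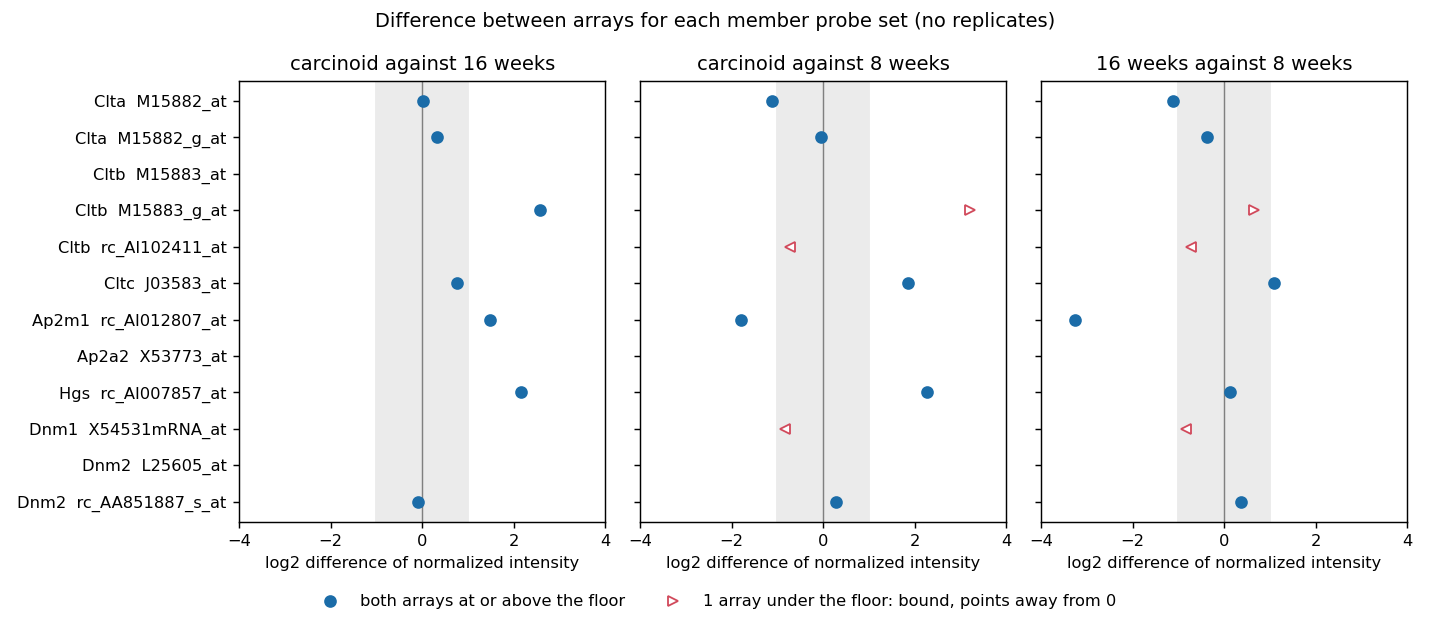
The log2 difference of normalized intensity for each of the 12 probe sets in the 3 comparisons, with the grey band spanning less than 2-fold. Filled points were measured on both arrays, open triangles are bounds, and rows with no mark were under the floor on both arrays. Hgs and the brightest Cltb probe set lie over 2 to the right in both carcinoid comparisons, while Ap2m1 is at -3.27 for 16 against 8 weeks.

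Over all 12 probe sets, 7 were measured on both arrays in carcinoid against 16 weeks, and 3 of them were at least 2-fold higher in the carcinoid (Cltb, Hgs and Ap2m1) and 0 lower. Among the 3311 probe sets of the array measured on both, 7.01% were higher and 6.25% lower by that rule. In carcinoid against 8 weeks 6 were measured on both, of which 2 were higher (Cltc and Hgs) and 2 lower (Ap2m1 and 1 Clta probe set). The shares over all probe sets were 11.8% higher and 11.3% lower. A further Cltb probe set, under the floor at 8 weeks, had a bound of over 2-fold, as did 36.4% of all probe sets that reached the floor in the carcinoid and not at 8 weeks (34.4% in the lower direction). For 16 against 8 weeks such bounds were held by 35.6% (higher) and 34.1% (lower), and by 0 member probe sets. In 16 against 8 weeks 6 were measured on both, of which 1 was higher (Cltc) and 2 lower (Ap2m1 and 1 Clta probe set), against 10.8% and 9.86% of all probe sets. The genes were picked from these same contrasts, and both comparisons with 8 weeks share that array, so nothing is read from the counts. By gene, 7 of the 8 had at least 1 array at or above the floor on the brightest probe set.

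Genes whose profile over the 3 arrays lay nearest were found by the distance between log2 values centred on their mean, among 1747 genes at or above the floor on every array. With its 8-week value raised to the floor, the brightest Cltb probe set was nearest to Atn1 (distance 0.57), Stk39 (0.61) and Hgs itself (0.67). Without the floor the same 3 genes were nearest in another order, Stk39 (0.63), Atn1 (0.73) and Hgs (0.82), so their order rests on a value below the floor. Nearest to Ap2m1 was the NF-kappaB inhibitor Nfkbia (0.06), at 36.4, 13.1 and 133 normalized on the carcinoid, 16-week and 8-week arrays. The transcription factor Cebpb (0.22) and the mRNA-decay factor Zfp36 (0.28) came next. A likeness over 3 arrays is a description and carries no test.

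Other genes of the pathway were taken from fixed lists, of which 44 of 91 genes were found on the array. Of 13 other clathrin adaptors found, 6 were measured on both arrays in carcinoid against 8 weeks, of which 3 were at least 2-fold higher and 0 lower. Among the 2016 genes measured on both arrays, 10.8% were higher and 11.2% lower. The 3 were Arrb2 (4.71-fold), Ap2s1 (3.39-fold) and Ap1b1 (2.56-fold, but 1.47-fold on its other probe set). Arrb2 couples activated receptors to clathrin, Ap2s1 is the small AP-2 subunit, and Ap1b1 is a large subunit of the trans-Golgi adaptor AP-1. The brightest Arrb2 probe set read 12.8 normalized at 8 weeks, barely over the floor, and 10.5 as deposited, under it. Another Arrb2 probe set, made from the same sequence, read 7.6, 5.4 and 7.0 as deposited on the carcinoid, 16-week and 8-week arrays. It lay under the floor on each, so the Arrb2 folds against 8 weeks rest on 1 probe set. The median log2 difference of the 6 was 0.88, against -0.06 over all genes measured. As deposited it was 0.66 against 0.46, with 2 of 4 higher. A further pair had bounds of over 2-fold. Ap3m1, of the AP-3 adaptor, was at least 2.41-fold higher. Epn1, an epsin that curves the membrane, was at least 2.15-fold lower in the carcinoid and also at 16 weeks than at 8 weeks. Such bounds were common. Of genes at the floor in the carcinoid and not at 8 weeks, 276 of 702 had a higher bound. Of genes at the floor at 8 weeks only, 237 of 652 had a lower bound against the carcinoid and 226 of 632 against 16 weeks. In 16 against 8 weeks 2 of 6 were higher, Arrb2 (2.51-fold) and Ap2s1 (2.15-fold), and 0 lower, where 10.5% of all genes measured were higher and 10.02% lower. The median was 0.34 against -0.01, or 0.44 against 0.40 as deposited, with 1 of 4 higher. In carcinoid against 16 weeks 0 of 7 were 2-fold apart either way, with a median of 0.65 against 0.01. Of all genes measured, 6.79% were higher and 5.57% lower. As deposited 1 of 7 was higher, with a median of 0.76 against 0.10.

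The brightest probe sets of the AP-2 subunits did not share 1 order of arrays. Probe sets of the same subunit also differed in order, and Ap2m1 was picked for its values, so no difference between subunits is concluded. Ap2s1 read 102.7, 58.1 and 20.7 as deposited on the carcinoid, 16-week and 8-week arrays on its brightest probe set, and 20.6, 5.4 and 13.4 on the other. Ap2b1, a large AP-2 subunit named after its values were seen, read 85.6, 56.8 and 41.4 as deposited on its brightest probe set. After normalization that probe set read 72.05, 52.9 and 54.2, with no pair of arrays 2-fold apart. Another Ap2b1 probe set read 50.7, 7.8 and 15.2 as deposited, under the floor at 16 weeks. The remaining Ap2b1 probe set stayed under the floor. On these brightest probe sets Ap2s1 and Ap2b1 were highest in the carcinoid, whereas Ap2m1 was highest at 8 weeks.

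Of 11 genes for membrane bending, scission and uncoating, 1 of 6 measured was at least 2-fold higher in carcinoid against 16 weeks and 0 lower. Of all genes measured, 6.79% were higher by that rule. The gene was Sh3gl3, an endophilin (2.29-fold, 37.7 against 16.5 normalized). It also had a bound of at least 3.04-fold higher in the carcinoid than at 8 weeks. A bound of over 2-fold was held by 276 of the 702 genes that reached the floor in the carcinoid and not at 8 weeks. Gak, a kinase that helps strip clathrin from vesicles, was 2.13-fold higher in the carcinoid than at 8 weeks, 1 of 5 measured, with 0 lower, where 10.8% of all genes were higher. Sh3gl1, another endophilin, was 2.36-fold higher at 16 than at 8 weeks, also 1 of 5 with 0 lower, where 10.5% of all genes were higher. The medians of this list were 0.09, -0.01 and -0.27 for carcinoid against 16 weeks, carcinoid against 8 weeks and 16 against 8 weeks.

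Downstream of the coat, 3 of 16 listed endosomal sorting genes were found. After normalization 0 of them were 2-fold apart where measured on both arrays. Of all genes measured, 6.79% were higher in carcinoid against 16 weeks, 10.8% in carcinoid against 8 weeks and 10.5% in 16 against 8 weeks. The shares lower were 5.57%, 11.2% and 10.02%. Chmp2a read 167, 77.2 and 69.1 as deposited on the carcinoid, 16-week and 8-week arrays. That is 2.16-fold higher in the carcinoid than at 16 weeks and 2.42-fold higher than at 8 weeks. On that scale 205 of 2236 and 490 of 1968 genes measured were higher. Rabep1, an effector of the early endosome GTPase Rab5, read 3.6, 23.1 and 33.2 normalized on the carcinoid, 16-week and 8-week arrays. This gave a bound of at least 2.67-fold lower in the carcinoid than at 8 weeks. A bound of over 2-fold was held by 237 of the 652 genes that reached the floor at 8 weeks and not in the carcinoid. Of 6 endocytic Rab genes, 4 were measured on both arrays in every comparison. Rab11a, the GTPase of recycling endosomes, was 2.76-fold higher in the carcinoid than at 8 weeks, the 1 of 4 that was 2-fold apart, where 10.8% of all genes were higher, with 223, 140 and 80.9 normalized on the carcinoid, 16-week and 8-week arrays. Its other probe sets read 107, 61.4 and 9.6, and 105, 68.2 and 30.2, as deposited, in the same order of arrays. Rab5b, of early endosomes, was 2.01-fold lower at 16 than at 8 weeks, at the edge of the threshold. It was the 1 of 4 that was lower, where 10.02% of all genes were lower. As deposited its 16-week value was 0.76 times the 8-week value. In carcinoid against 16 weeks 0 of 4 Rab genes were 2-fold apart, with a median of 0.40. Of all genes measured there, 6.79% were higher and 5.57% lower.

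**Figure D3:**
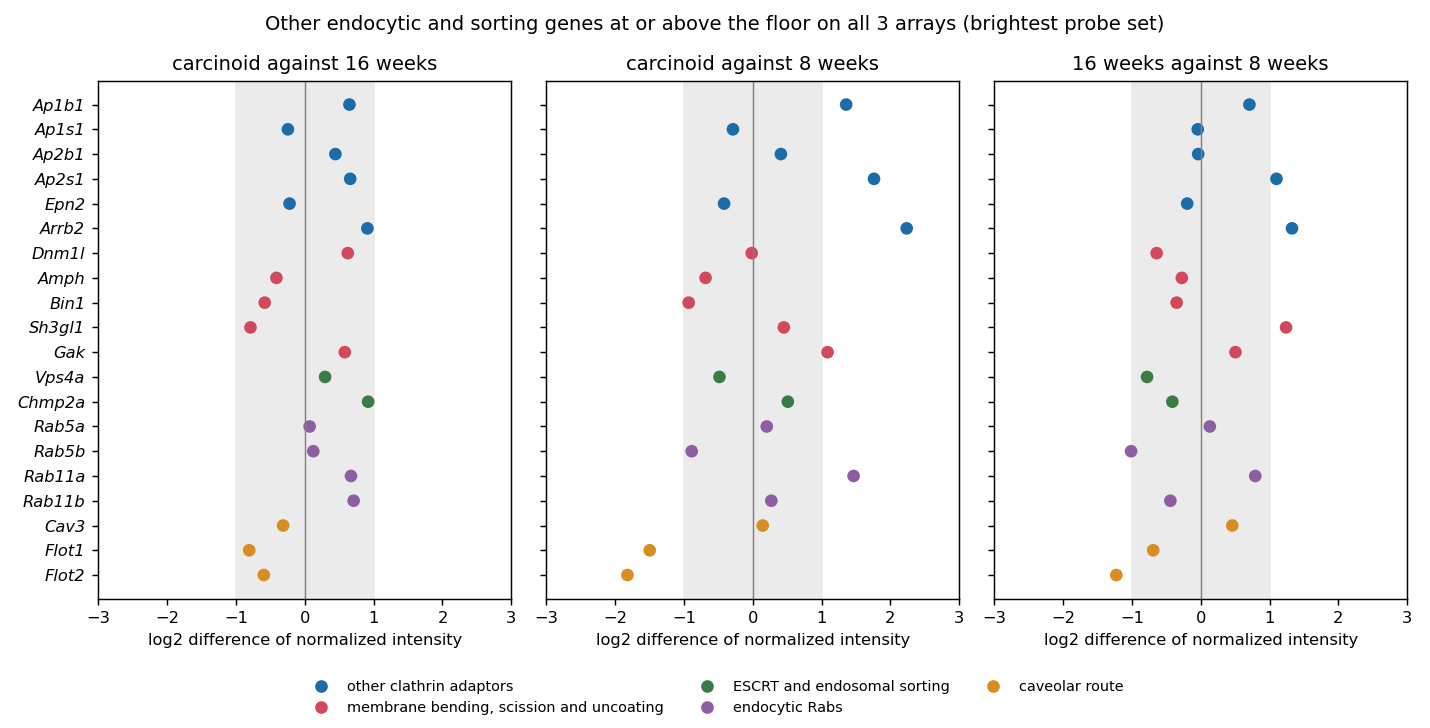
The log2 difference of normalized intensity for the other endocytic and sorting genes at or above the floor on all 3 arrays, brightest probe set each, coloured by list, with the grey band spanning less than 2-fold. All points plotted for carcinoid against 16 weeks lie in the band (Sh3gl3, under the floor at 8 weeks, is not plotted), while Arrb2 and Ap2s1 lie above it in both comparisons with 8 weeks and Flot2 below it.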

How the data were processed

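The authors deposited a linear intensity for every probe set on each array. How they were computed and scaled is not given in the sources used here. A depth is not defined for such values. Groups came from the sample descriptions. Gene symbols came from the platform annotation, which gives 7006 probe sets 1 symbol, 308 several and 1426 none; only those with 1 symbol were named, covering 4736 genes. Intensities were quantile normalized over the 3 arrays with 59 control probe sets included (Python 3.11.15, numpy 2.4.6, pandas 2.3.3), which hides any shift shared by most transcripts. Values under the floor, the pooled median of non-control values, were raised to it. A fold is given where both arrays reached the floor, a bound where 1 did, and none otherwise. Each gene was represented by its brightest probe set (mean of the deposited values). The spread between probe sets is the root mean square gap between the log2 differences of the 2 brightest measured probe sets of a gene, divided by the square root of 2. With 1 array per group no test was run. The normalization and fold calling were run on simulated arrays with planted differences. These differences were well over 2-fold, lay in bright probe sets only, and met less noise than the spread between probe sets. The simulation therefore does not show how reliable a 2-fold call is here or near the floor.

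All members are named, with up to 3 genes per list and comparison that were at least 2-fold apart on both measured arrays, and the 3 genes nearest in profile to Cltb and Ap2m1. Members, lists and rules were chosen with earlier results of these data known. The alternatives were the deposited values, median scaling, floors at the 25th (4.2) and 75th (30) percentile, the floor as a pseudocount, and the median over a gene's probe sets. Normalization without the 8-week array was added after seeing the data. No sequences were used.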

Additional observations from a re-analysis of the deposited data

How the results depend on the processing

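No paired analysis was possible because each group had 1 array, and for the same reason no array could be left out of a group. No member probe set at least 2-fold apart changed direction under any alternative that gave it a value. The number of probe sets at least 2-fold apart depended most on the floor and the scaling. In carcinoid against 16 weeks 232 were higher and 207 lower. These became 793 and 780 with the floor at the 25th percentile, 44 and 48 at the 75th, and 458 and 460 with the floor as a pseudocount. In carcinoid against 8 weeks 368 were higher and 354 lower, against 769 and 110 as deposited, 1023 and 1013 with the lower floor, 140 and 121 with the higher floor, and 787 and 725 with the pseudocount. In 16 against 8 weeks 343 were higher and 312 lower, against 595 and 121 as deposited, 1013 and 944 with the lower floor, 120 and 104 with the higher floor, and 703 and 713 with the pseudocount. Higher floors leave fewer probe sets measured on both arrays. As deposited, all probe sets shifted by a median log2 of 0.45 for carcinoid against 8 weeks, 0.42 for 16 against 8 weeks and 0.06 for carcinoid against 16 weeks.

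Member counts cover probe sets measured on both arrays and are small. With the floor at the 75th percentile, 0 such member probe sets or genes were 2-fold higher in any comparison (3, 2 and 1 at 12.4). Bounds of over 2-fold remained for Cltb and Hgs in both carcinoid comparisons and for Cltc against 8 weeks (log2 1.29). For 16 against 8 weeks 1 member probe set and 0 member genes measured on both were lower, with Ap2m1 a bound of -2.29. With the floor at the 25th percentile, 4 member probe sets and 2 member genes were lower in the carcinoid than at 8 weeks, and 2 member genes were lower at 16 than at 8 weeks. As deposited, and with median scaling, 1 member probe set was lower at 16 than at 8 weeks and 1 in the carcinoid than at 8 weeks. With the pseudocount, 0 member probe sets or genes were higher at 16 than at 8 weeks, and 1 member probe set was lower in the carcinoid than at 8 weeks. Leaving the 8-week array out of the normalization moved no member count in carcinoid against 16 weeks, with Cltb at 2.65 on the log2 scale and Hgs at 2.20.

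Of the 44 other pathway genes, 24, 20 and 21 were measured on both arrays in carcinoid against 16 weeks, carcinoid against 8 weeks and 16 against 8 weeks. Of these, 1, 5 and 3 were higher (4.17%, 25% and 14.3%) and 0, 2 and 2 lower (0%, 10% and 9.52%). Over all genes measured, 6.79%, 10.8% and 10.5% were higher and 5.57%, 11.2% and 10.02% lower. As deposited, 3 were higher in carcinoid against 16 weeks and 0 were lower in either comparison with 8 weeks. With median scaling, 2 were higher in carcinoid against 16 weeks, 1 was lower in carcinoid against 8 weeks and 0 were lower in 16 against 8 weeks. With the lower floor 2 were higher in carcinoid against 16 weeks and 5 in 16 against 8 weeks. With the higher floor 0, 1 and 0 were higher in the 3 comparisons. With the pseudocount 0 were higher and 1 lower in carcinoid against 16 weeks. With the median over a gene's probe sets 1 was higher in 16 against 8 weeks. The cause of these moves was not tested beyond the construction of each alternative.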

Other observations

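Of 3 flotillin and caveolin genes, which serve clathrin-independent routes, measured on both the carcinoid and 8-week arrays, 2 were at least 2-fold lower in the carcinoid and 0 higher. Of all genes measured there, 11.2% were 2-fold lower. Flot2, a membrane scaffold of flotillin domains, read 69.5, 95.2 and 137.8 as deposited on the carcinoid, 16-week and 8-week arrays. After normalization it was 3.53-fold lower in the carcinoid than at 8 weeks and 2.34-fold lower at 16 than at 8 weeks, but as deposited the carcinoid value was 0.504 times, and the 16-week value 0.691 times, the 8-week value. Flot1, its partner, was 2.82-fold lower in the carcinoid than at 8 weeks on its brightest probe set. The deposited values of that probe set were 557.6, 790.2 and 751.9, a ratio of 0.742 for carcinoid over 8 weeks, and another probe set ran the other way at 39.4, 26.2 and 6.1. The median log2 difference of the list in carcinoid against 8 weeks was -1.50, or -0.43 as deposited.

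Of 7 cargo receptors found, 0 were measured on both the carcinoid and 8-week arrays. Tfrc, the transferrin receptor and a classical cargo of clathrin-coated pits, was named after its values were seen. It read 29.0, 41.3 and 1.5 as deposited on the carcinoid, 16-week and 8-week arrays. This gave bounds of at least 2.10-fold higher in the carcinoid and at least 3.11-fold higher at 16 weeks than at 8 weeks. Of genes under the floor at 8 weeks, bounds of over 2-fold were held by 276 of 702 that reached it in the carcinoid and 254 of 677 that reached it at 16 weeks. The 8-week array is the one with the dim GAPDH 5' control (344, 364 and 37.3 deposited on the carcinoid, 16-week and 8-week arrays), and the part of this in the Tfrc values was not tested.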
